A study of Mus musculus with 10 samples.

Results

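The genes described here are 42 components of the machinery that copies DNA and of the switch from G1 into S phase, among 46959 genes of the count table. They were taken by gene symbol as known parts of the process, and were chosen with earlier results of these data known. Their counts beside the shares of all genes are therefore descriptions and not independent evidence. All 42 passed the filter on low counts in every comparison. They are grouped below into 9 roles: the MCM2-7 helicase ring with 6 genes, origin recognition and licensing with 4, helicase activation with 6, polymerases and primase with 8, the sliding clamp and its loader with 5, single-stranded DNA binding with 3, Okazaki fragment joining with 2, deoxynucleotide supply with 4, and cyclin E and E2F with 4.

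The study measured total RNA, depleted of ribosomal RNA, in 10 mouse libraries, and its title concerns HDAC inhibitors and transcription of the immunoglobulin heavy chain locus. Spleen cells without surface CD43, mostly resting B cells, spent 2 days in culture with lipopolysaccharide (LPS) at 5 µg/ml. LPS comes from bacterial walls and makes mouse B cells proliferate and mature towards antibody secretion. The 3 splenic groups, of 2 libraries each, were wild-type (WT, Black-6) cells with LPS, WT cells with LPS and 200 ng/ml SAHA (vorinostat, an inhibitor of histone deacetylases) added when the culture began, and cells of KOKI mice. The 4 femoral libraries came from cells labelled as B cells and extracted without culture, each a pool of 3 mice: 2 pools from mice lacking RAG2 and gamma c (the femoral controls), 1 from KOKI mice lacking both, and 1 from KOKI mice lacking RAG2 only. RAG2 is needed to assemble antigen receptors and gamma c is a shared chain of cytokine receptors, and all 4 femoral pools lacked RAG2. The allele that KOKI stands for is not spelled out in the labels. Titles and design text give the KOKI spleen cultures LPS alone, but SAHA is named beside LPS in their treatment label, so they were compared with both WT groups. Values are given replicate 1 first, and for the femoral KOKI pools the one lacking gamma c first.

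Total counts per library ran from 18614742 to 29314068. Ms4a1, which encodes the B cell surface protein CD20, was at 857.6 to 1025 CPM (counts scaled to a fixed library total) in the splenic libraries and at most 0.0946 in the femoral ones, and Cd79a, a signalling chain of the B cell receptor, was at most 0.331 there, although the femoral cells are labelled as B cells. Of 10 neutrophil markers the summed level was 13370 to 20660 CPM in the femoral libraries against at most 3.604 in the splenic ones, and the 9 erythroid markers summed to 9428 to 12510 against at most 22.18. SAHA replicate 2 stood apart in having counts for 451 of 1292 odorant receptor genes, against 126 in SAHA replicate 1 and 15 to 47 in the other 8 libraries. KOKI spleen replicate 2 had 8499 counts of Xist, the X-inactivation transcript, where no other library had more than 9. It also had 20 counts of Ddx3y, a gene of the Y chromosome, where the other libraries had 1853 to 5868. By both genes this library looked female and the others male, so it differs in sex from the WT cultures it is compared with. Results that rest on these libraries are given with and without them.

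Replication begins when the origin recognition complex, Cdc6 and Cdt1 load the MCM2-7 ring onto DNA in G1, which licenses an origin. In S phase Cdc45 and the GINS complex join the ring to form the moving helicase, primase and the polymerases copy both strands behind it, and PCNA, loaded by replication factor C, holds the polymerases on DNA. Many of these genes are transcribed in late G1 by E2F factors once cyclin E and its kinase have helped to inactivate the retinoblastoma proteins, and resting lymphocytes must switch them on before they can divide.

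The first question was how the replication genes differed between WT cultures with and without SAHA. All 42 had a lower fitted level with SAHA, and 17 of them fell at a Benjamini-Hochberg adjusted p under 0.05 in edgeR's quasi-likelihood test, while none rose and 25 did not pass. The steepest falls were in Cdc45 at -1.04 log2, Rrm2 at -1.04 and Ccne2 at -1.01, and the smallest difference was -0.25 in Pold1. Of all 15342 genes tested, 3.69% were called lower. The median log2 fold change was -0.64 over the 42 genes and 0.02 over all genes tested. In 41 of the 42 both SAHA libraries lay below both WT LPS libraries, the exception being Rpa3. Of all genes tested, 30.3% lay so. The titles number the WT samples ahead of the treatment (WT 1, WT 2), and within each number all 42 genes, Rpa3 included, were lower with SAHA, by a median log2 ratio of -0.66 in WT 1 and -0.65 in WT 2. With that number as a block in the fit, 30 of the 42 were called lower, against 9.69% of all genes tested. Summed over the 42 genes, the level was 4524 and 4698 CPM in WT LPS and 2734 and 3518 CPM with SAHA, so the genes took 0.452% and 0.470% of all counts without SAHA and 0.273% and 0.352% with it. Sums here and below use plain library totals, without the normalisation applied to members' levels and fold changes. Its factors were 0.8851 and 1.0856 for SAHA replicates 1 and 2, so part of the gap between their sums is scaling. These are bulk cultures, in which fewer cycling cells and less of these RNAs per cell cannot be told apart.

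With 2 libraries a group the calls depended on each library. Without WT LPS replicate 1, SAHA replicate 1 or SAHA replicate 2 no gene of the 42 was called. Without WT LPS replicate 2 only Orc1, Cdc45, Pole2, Rrm2 and Ccne2 were. The median over the 42 stayed between -0.71 and -0.60 in these fits. Of all genes tested, the fit without WT LPS replicate 2 called 1.42% lower, and the other 3 called none. A fit of the 4 WT libraries alone called none, here or among all genes. DESeq2 called 26, all lower, where it called 6.5% of all genes tested lower.

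Markers of cell state moved with the same comparison. The 8 plasmablast markers, genes of B cells turning into antibody-secreting cells, summed to 823.3 and 796.3 CPM in WT LPS and 522.7 and 601.5 with SAHA, and 3 of 7 tested fell (Prdm1 -1.42, Xbp1 -0.98, Ell2 -0.64), with Tnfrsf17 at 0 in both WT LPS libraries. The 10 mature B cell markers summed to 4385 and 4882 CPM against 5150 and 6693, with 2 of 10 higher (Cr2 1.24, Fcer2a 1.19). The 8 macrophage and monocyte markers summed to 26.85 and 27.1 against 46.7 and 54.48, with 1 of 6 tested higher (Adgre1 0.92), and the 10 T cell markers to 15.35 and 15.02 against 18.12 and 21.87, with none of 8 tested called. Their part in the fall of the replication genes was not tested.

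**Figure D1:**
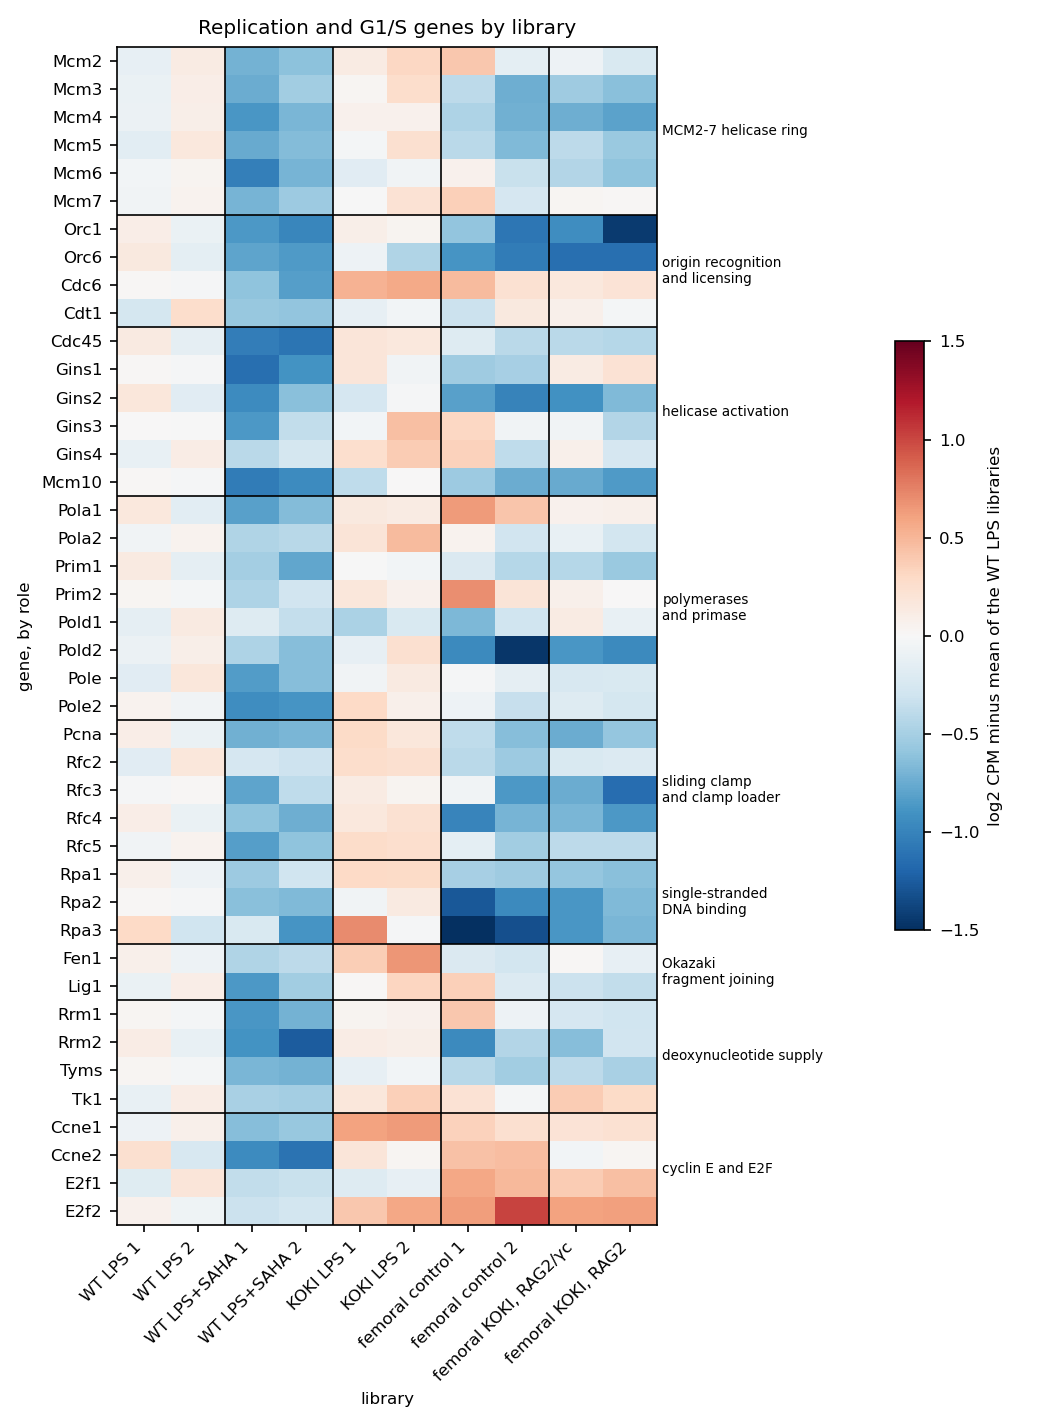
Level of each of the 42 genes (rows, by role) in each library (columns) as log2 CPM minus the mean of the 2 WT LPS libraries, from blue (lower) to red (higher). The 2 SAHA columns are blue in all 42 rows, while the KOKI LPS columns are mostly pale, with Cdc6 and Ccne1 red in both.

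As 17 of the 42 genes fell with SAHA, the promoters of the set were searched for words that E2F factors are known to bind. RefSeq promoter windows of the mouse build GRCm38.p6, 250 bases before to 50 after a gene's RefSeq start, matched 34 of the 42 genes in 40 windows. An exact E2F word (TTTGGCGC, TTTGCCGC, TTTCGCGC or TTTCCCGC, on either strand) was found in 14 of the 40 windows (35.0%), each from a different gene, against 744 of all 32851 windows (2.26%). The CCAAT box (CCAAT, either strand) was in 57.5% of the members' windows and 37.4% of all, and TTTGAA, the core of the cell cycle element CHR of mitotic genes, in 15.0% and 17.9%. These are matches of letters and not shown to be bound. RefSeq starts can differ from the gene bounds of the count table. The windows of Cdc6, Lig1 and Mcm7 that hold an E2F word, for instance, lie inside those genes. The 6 windows below belong to the genes with the largest SAHA fold changes among those with an E2F word, and show where the word lies in each. They run 5′ to 3′ along the gene's own strand, with E2F words in capitals: Orc1 (chr4:108579204-108579503, plus strand), Pole2 (chr12:69228141-69228440, minus strand), Mcm6 (chr1:128359656-128359955, minus strand), Pola1 (chrX:93632106-93632405, minus strand), Mcm5 (chr8:75109259-75109558, plus strand) and Cdc6 (chr11:98907901-98908200, plus strand).
Orc1: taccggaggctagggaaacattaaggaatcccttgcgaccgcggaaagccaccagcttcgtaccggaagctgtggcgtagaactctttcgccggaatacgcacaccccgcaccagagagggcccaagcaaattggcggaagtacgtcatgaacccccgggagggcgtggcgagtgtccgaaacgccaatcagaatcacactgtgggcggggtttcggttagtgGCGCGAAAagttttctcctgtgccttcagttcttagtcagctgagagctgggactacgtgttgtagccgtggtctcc
Pole2: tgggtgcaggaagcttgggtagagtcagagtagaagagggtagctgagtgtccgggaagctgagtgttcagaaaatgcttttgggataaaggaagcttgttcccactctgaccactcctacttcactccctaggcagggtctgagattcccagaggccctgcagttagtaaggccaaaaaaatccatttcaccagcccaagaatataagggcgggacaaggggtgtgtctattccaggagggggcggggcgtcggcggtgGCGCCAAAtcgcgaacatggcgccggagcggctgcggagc
Mcm6: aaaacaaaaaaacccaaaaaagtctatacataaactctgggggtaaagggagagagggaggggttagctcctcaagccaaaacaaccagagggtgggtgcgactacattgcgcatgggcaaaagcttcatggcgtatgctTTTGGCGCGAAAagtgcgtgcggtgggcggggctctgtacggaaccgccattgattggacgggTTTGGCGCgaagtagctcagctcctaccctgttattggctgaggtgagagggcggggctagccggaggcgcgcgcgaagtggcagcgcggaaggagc
Pola1: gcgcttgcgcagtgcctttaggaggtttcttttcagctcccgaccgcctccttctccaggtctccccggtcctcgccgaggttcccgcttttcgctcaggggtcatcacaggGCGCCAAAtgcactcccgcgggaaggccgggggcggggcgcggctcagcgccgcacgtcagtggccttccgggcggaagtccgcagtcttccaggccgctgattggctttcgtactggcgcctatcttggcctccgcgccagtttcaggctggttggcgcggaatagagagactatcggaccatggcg
Mcm5: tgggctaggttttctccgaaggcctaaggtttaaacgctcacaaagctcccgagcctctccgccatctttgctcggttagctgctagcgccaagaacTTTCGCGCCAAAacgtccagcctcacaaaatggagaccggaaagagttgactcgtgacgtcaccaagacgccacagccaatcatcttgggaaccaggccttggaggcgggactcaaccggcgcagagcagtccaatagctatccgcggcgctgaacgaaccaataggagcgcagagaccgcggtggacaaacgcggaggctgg
Cdc6: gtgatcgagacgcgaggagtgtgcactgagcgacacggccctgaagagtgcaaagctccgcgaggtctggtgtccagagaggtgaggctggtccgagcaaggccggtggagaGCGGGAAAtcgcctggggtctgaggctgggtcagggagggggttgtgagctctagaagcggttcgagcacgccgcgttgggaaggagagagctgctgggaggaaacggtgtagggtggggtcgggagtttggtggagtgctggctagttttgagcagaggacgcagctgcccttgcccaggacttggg

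In Mcm6 the first capital run is 2 overlapping words, TTTGGCGC on the gene's strand and TTTCGCGC on the other, and the remaining run is a further TTTGGCGC, so that the window holds 3. Mcm5 likewise has 2 overlapping words, here TTTCGCGC on its own strand and TTTGGCGC on the other. Orc1, Pole2, Pola1 and Cdc6 have 1 word each, all on the opposite strand. Counted from the RefSeq start, the word is centred at -23.5 bases in Orc1 and at 13.5 bases in Pole2. In the SAHA comparison the median log2 fold change was -0.63 over the 14 genes with one, of which 5 were called lower, and -0.63 over the 20 without, of which 9 were called lower. The 8 genes with no window in the table were Mcm4, Gins1, Gins2, Gins4, Prim2, Pole, Rfc2 and Ccne2.

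**Figure D2:**
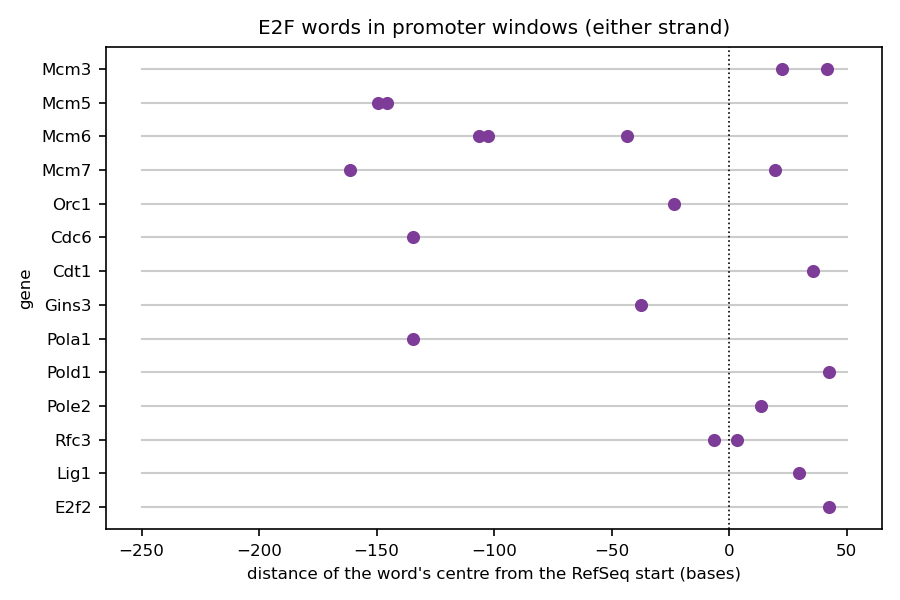
Position of exact E2F words in the promoter windows of the 14 genes that hold one, as the distance in bases of the word's centre from the RefSeq start (dotted line), with grey lines for the windows. Words lie on both sides of the start, from a centre at -161.5 bases in Mcm7 to 42.5 in Pold1 and E2f2.

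The MCM2-7 ring is the core of the replicative helicase. With SAHA, Mcm4 and Mcm6 fell, and Mcm2, Mcm3, Mcm5 and Mcm7 had log2 fold changes of -0.64, -0.60, -0.68 and -0.59 without passing (adjusted p = 0.0549 to 0.0812). Mcm6 (chr1:128331590-128359664) stood at 349 and 368 CPM in WT LPS, 177 and 222 with SAHA, 320 and 346 in KOKI, 375 and 286 in the femoral controls, and 265 and 235 in the femoral KOKI pools. Both SAHA libraries lay below every other library for this gene, and its SAHA fold change was -0.82 (SE 0.17, adjusted p = 0.0411). Mcm7 (chr5:138164583-138172422), with the smallest fold change in the ring, was at 222 and 241 CPM in WT LPS, 143 and 158 with SAHA, 230.4 and 269 in KOKI, 297 and 194 in the femoral controls, and 236 and 234 in the femoral KOKI pools. Its SAHA libraries lay below both WT LPS libraries as well, at a log2 fold change of -0.59 (SE 0.15, adjusted p = 0.0668). Mcm4 differed by -0.75 (adjusted p = 0.0403).

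Licensing factors place the ring on origins. Orc1 and Orc6 are subunits of the origin recognition complex, Cdc6 is the ATPase that works with it, and Cdt1 brings the ring. Of the 4, Orc1, Orc6 and Cdc6 fell. Orc1 (chr4:108579423-108614833) stood at 43.6 and 38.0 CPM in WT LPS, 22.4 and 20.7 with SAHA, 43.1 and 41.7 in KOKI, 27.0 and 19.2 in the femoral controls, and 21.4 and 15.1 in the femoral KOKI pools. Both SAHA libraries lay below the other splenic ones, at -0.89 (SE 0.13, adjusted p = 0.0238), and 10.81% of its exon bases lie under a predicted gene on the other strand, Gm12743, with few counts. Cdt1 (chr8:122568015-122573128) was at 31.6 and 45.3 CPM in WT LPS, 25.4 and 25.1 with SAHA, 34.6 and 36.7 in KOKI, 30.1 and 41.9 in the femoral controls, and 39.9 and 36.9 in the femoral KOKI pools. Its WT LPS libraries differed more from each other than its SAHA libraries did, and the SAHA fold change of -0.58 (SE 0.19, adjusted p = 0.107) did not pass. Cdc6 (chr11:98907801-98923940) was at 68.9 and 67.6 CPM in WT LPS, 45.1 and 38.4 with SAHA, 98.1 and 101 in KOKI, 94.5 and 79.7 in the femoral controls, and 75.9 and 78.8 in the femoral KOKI pools. With SAHA it fell by 0.68 on the log2 scale (adjusted p = 0.0345), while its KOKI libraries were the highest of all 10. Orc6 fell with SAHA by 0.80 on the log2 scale.

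Helicase activation adds Cdc45 and the 4 GINS subunits to the ring, with Mcm10 needed for the ring to open. Cdc45, Gins1 and Mcm10 fell, and this role had the lowest median of the 9, -0.86. Cdc45 (chr16:18780447-18811987) stood at 76.7 and 64.1 CPM in WT LPS, 34.1 and 32.8 with SAHA, 79.7 and 78.4 in KOKI, 61.1 and 53.0 in the femoral controls, and 52.9 and 52.0 in the femoral KOKI pools. Of its exon bases, 9.28% lie under Ufd1l on the other strand, with 11261 counts in all libraries against 14422 for Cdc45, so part of its counts is uncertain. Its SAHA libraries were about level with each other and below every other library, at -1.04 (SE 0.13, adjusted p = 0.0198). Gins4 (chr8:23226610-23237668) was at 28.5 and 33.2 CPM in WT LPS, 23.2 and 25.6 with SAHA, 36.5 and 40.0 in KOKI, 39.1 and 23.5 in the femoral controls, and 32.5 and 25.9 in the femoral KOKI pools. Both SAHA values lay under both WT LPS values, but the fold change of -0.31 (SE 0.15, adjusted p = 0.237) did not pass. Gins1 was at 27.0 and 26.2 CPM in WT LPS, 12.2 and 14.3 with SAHA, 30.1 and 25.7 in KOKI, 18.5 and 18.8 in the femoral controls, and 29.0 and 31.0 in the femoral KOKI pools. Its SAHA fold change was -0.97 (adjusted p = 0.0260) and that of Mcm10 -0.96 (adjusted p = 0.0262). Gins2 and Gins3, the least abundant of the GINS genes per length, had values of -0.75 and -0.56 that did not pass, and since 67.32% of the exon bases of Gins2 lie under the opposite-strand gene Gse1, its counts are uncertain.

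The polymerases divide the work: polymerase alpha with primase lays down starter strands, epsilon extends the leading strand and delta the lagging strand. Of their 8 genes, Pola1, the catalytic subunit of alpha, and Pole2, a small subunit of epsilon, fell. Pole2 (chr12:69201779-69228190) stood at 31.3 and 29.2 CPM in WT LPS, 15.8 and 16.4 with SAHA, 37.2 and 31.9 in KOKI, 28.7 and 23.8 in the femoral controls, and 26.4 and 25.1 in the femoral KOKI pools. The SAHA libraries were again the lowest of the 10, at -0.88 (SE 0.14, adjusted p = 0.0260). Pold1 (chr7:44532746-44548849), the catalytic subunit of delta, was at 75.3 and 90.4 CPM in WT LPS, 72.1 and 64.2 with SAHA, 59.3 and 70.6 in KOKI, 51.7 and 66.9 in the femoral controls, and 89.7 and 76.1 in the femoral KOKI pools. SAHA replicate 1 was just below WT LPS replicate 1, and the fold change was -0.25 (SE 0.16, adjusted p = 0.351), the smallest of all 42. Pola1 fell by 0.71 on the log2 scale (adjusted p = 0.0413). Pola2, Prim1, Prim2, Pold2 and Pole ranged from -0.71 (Pole) to -0.34 (Prim2) without passing, with adjusted p = 0.0509 for Pole.

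The clamp PCNA and the replication factor C genes gave 2 calls of 5, Rfc4 and Rfc5. Rfc5 (chr5:117378103-117389047) stood at 68.3 and 73.2 CPM in WT LPS, 39.8 and 46.4 with SAHA, 85.6 and 84.3 in KOKI, 64.0 and 49.4 in the femoral controls, and 54.0 and 53.9 in the femoral KOKI pools. With SAHA it fell by 0.68 on the log2 scale (adjusted p = 0.0372). Rfc2 (chr5:134581366-134601805) was at 97.2 and 123 CPM in WT LPS, 91.9 and 88.5 with SAHA, 131 and 129.7 in KOKI, 82.7 and 75.0 in the femoral controls, and 93.7 and 95.2 in the femoral KOKI pools. Its SAHA values were just under that of WT LPS replicate 1, and the fold change was -0.26 (SE 0.15, adjusted p = 0.320). Pcna (chr2:132249162-132253314), the most abundant member per length, was at 497 and 435 CPM in WT LPS, 282 and 289 with SAHA, 565 and 522 in KOKI, 356 and 298 in the femoral controls, and 278 and 310 in the femoral KOKI pools. Its SAHA libraries were within the range of the femoral ones and below the other splenic ones, at -0.68 (SE 0.16, adjusted p = 0.0519), just short of the threshold. A processed copy, Pcna-ps2, took 5450 counts against 93083 for Pcna, so reads may be split between them. Rfc3 differed by -0.54 (adjusted p = 0.0851) and Rfc4 by -0.64 (adjusted p = 0.0389). Opposite-strand genes lie over 12.65% of the exon bases of Rfc4 (Eif4a2, with 119972 counts in all libraries against 11687 for Rfc4), 15.1% of those of Rfc2 (Lat2, 20307 against 24260) and 10.69% of those of Rfc5 (Wsb2, 3811 against 15155), so the counts of these 3 are uncertain.

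Replication protein A coats single-stranded DNA, and of its 3 subunits Rpa2 fell. Rpa2 (chr4:132768332-132778752) stood at 106 and 103 CPM in WT LPS, 68.1 and 66.3 with SAHA, 101 and 115 in KOKI, 43.3 and 53.9 in the femoral controls, and 57.4 and 66.0 in the femoral KOKI pools. The SAHA libraries lay below the 4 other splenic libraries at -0.61 (SE 0.13, adjusted p = 0.0403). Rpa1 (chr11:75298166-75348324) was at 194 and 175 CPM in WT LPS, 127 and 149 with SAHA, 227 and 225 in KOKI, 130 and 127 in the femoral controls, and 123 and 119 in the femoral KOKI pools. The large subunit differed by -0.39 (SE 0.15, adjusted p = 0.147). Rpa3, the small subunit, was at 94.8 and 62.5 CPM in WT LPS, 65.4 and 41.7 with SAHA, and 126 and 76.2 in KOKI, so that SAHA replicate 1 lay above WT LPS replicate 2. It was the member whose splenic replicates differed most, with replicate 2 below replicate 1 by 0.60 log2 in WT LPS, 0.65 with SAHA and 0.72 in KOKI, and its SAHA difference of -0.52 did not pass (adjusted p = 0.315).

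Fen1, the nuclease that trims Okazaki fragments, and Lig1, the ligase that seals them, did not pass with SAHA. Lig1 (chr7:13277283-13311433) stood at 104 and 119 CPM in WT LPS, 61.1 and 77.6 with SAHA, 113 and 139 in KOKI, 143 and 96.7 in the femoral controls, and 88.5 and 86.0 in the femoral KOKI pools. Its SAHA libraries were the lowest of the 10, with a fold change of -0.65 (SE 0.18, adjusted p = 0.0696). Fen1 (chr19:10199132-10204169) was at 116 and 105 CPM in WT LPS, 80.5 and 84.2 with SAHA, 143 and 175 in KOKI, 95.2 and 90.8 in the femoral controls, and 112 and 101 in the femoral KOKI pools. Here the difference with SAHA was -0.39 (SE 0.15, adjusted p = 0.143), and 78.82% of the exon bases of Fen1 lie under Gm10143 on the other strand, which had 57 counts in all libraries together. Tmem258, also on the other strand, lies over 5.37% of them, with 32705 counts against 26491 for Fen1, so the counts of Fen1 are uncertain.

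Deoxynucleotide supply had 3 calls of 4, as did licensing. Rrm1 and Rrm2 are the subunits of ribonucleotide reductase, Tyms makes thymidylate and Tk1 salvages thymidine. Rrm2 (chr12:24708241-24714146) stood at 326 and 280.1 CPM in WT LPS, 162 and 128 with SAHA, 326 and 321 in KOKI, 156 and 223 in the femoral controls, and 194 and 248 in the femoral KOKI pools. It fell by 1.04 on the log2 scale with SAHA (SE 0.17, adjusted p = 0.0260), and SAHA replicate 2 was the lowest library of the 10. Tk1 (chr11:117815526-117826092) was at 57.7 and 67.9 CPM in WT LPS, 44.6 and 43.9 with SAHA, 70.5 and 80.3 in KOKI, 72.6 and 61.2 in the femoral controls, and 81.7 and 76.3 in the femoral KOKI pools. The salvage enzyme differed by -0.48 (SE 0.14, adjusted p = 0.0883). Rrm1 fell by 0.76 and Tyms by 0.67 on the log2 scale.

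Among the cyclin E and E2F genes, which sit upstream of the rest, the 2 cyclin E genes and the 2 activating E2Fs differed in size. Ccne2 (chr4:11191351-11204779) stood at 95.6 and 68.4 CPM in WT LPS, 42.2 and 37.7 with SAHA, 91.5 and 82.6 in KOKI, 109.7 and 111 in the femoral controls, and 78.6 and 82.6 in the femoral KOKI pools. With SAHA it fell by 1.00 on the log2 scale (SE 0.17, adjusted p = 0.0277), and its counts are uncertain, as 17.42% of its exon bases lie under the opposite-strand gene Ints8, with 14764 counts in all libraries against 20513 for Ccne2. E2f2 (chr4:136172394-136196057) was at 68.6 and 62.6 CPM in WT LPS, 52.6 and 54.3 with SAHA, 86.8 and 98.3 in KOKI, 101 and 132 in the femoral controls, and 99.7 and 101 in the femoral KOKI pools. SAHA and WT LPS libraries were separate but close for E2f2, at -0.26 (SE 0.13, adjusted p = 0.239). Ccne1 differed by -0.58 (adjusted p = 0.0560) and E2f1 by -0.33 (adjusted p = 0.312). Whether Ccne2 and the E2F genes differ in their response was not tested.

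Other genes of the same processes were counted from lists of names. Of 15 further genes of origin licensing and firing, 5 fell and none rose, among them Dbf4 (-0.99), the activator of the origin-firing kinase Cdc7, Gmnn (-0.96), the inhibitor of Cdt1, Ticrr (-0.67), which helps load Cdc45, and Orc2 (-0.60). Of 25 further fork genes 8 fell, including Dna2 (-1.05), Top2a (-1.01), Tipin (-0.97) and Clspn (-0.95), and of 10 further genes of deoxynucleotide supply 4 fell, among them Shmt1 (-0.85), Dut (-0.81) and Nme1 (-0.78). Of 24 tested genes of G1/S control 5 fell, led by Fbxo5 (-1.12), Ccna2 (-1.05), Ccnd2 (-0.71) and Cdk4 (-0.65). The medians of these 4 lists were -0.54, -0.55, -0.62 and -0.47. Fewer passed when 1 library was left out: 0 to 2, 0 to 6, 0 to 2 and 0 to 2 genes of the lists in turn.

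Genes of mitosis, the cell cycle step after replication, served as a comparison. Of 39 mitosis genes tested, 34 fell with SAHA, with a median of -1.01, and Cdc20, Ccnb1, Kif23 and Cdk1 led them at -1.36, -1.32, -1.23 and -1.20. Their sum was 3651 and 3488 CPM in WT LPS and 1719 and 2215 with SAHA. The ratio of the summed replication genes to the summed mitosis genes was 1.24 and 1.35 in WT LPS, 1.59 and 1.59 with SAHA, and 1.12 and 1.18 in KOKI, so both SAHA libraries stood above the other 4. The difference between the sets was not tested. Without 1 library, 0 to 29 of the mitosis genes were called.

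**Figure D3:**
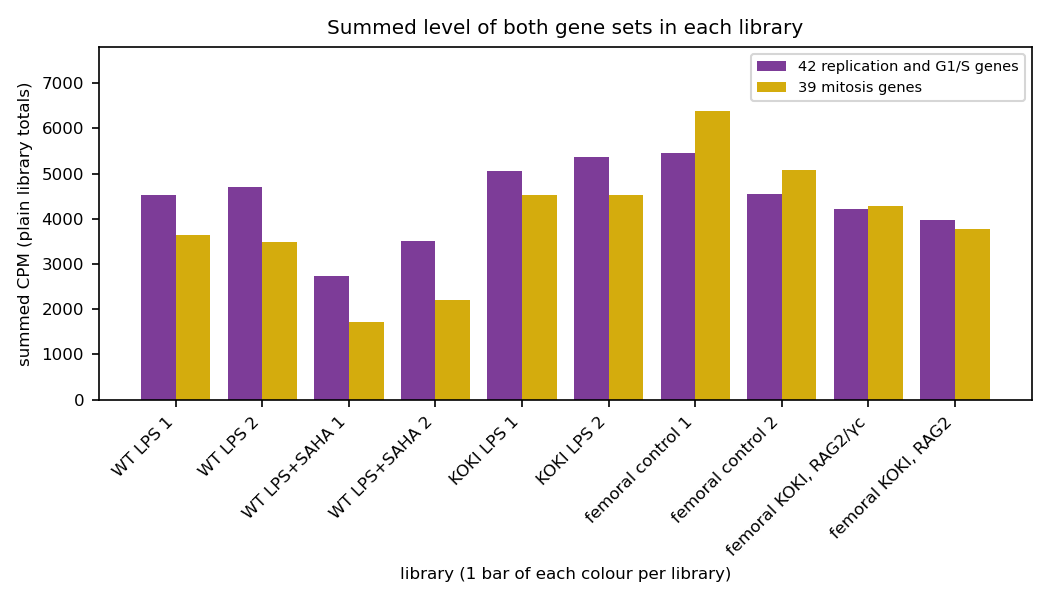
Summed CPM of the 42 replication and G1/S genes (purple) and of 39 mitosis genes (yellow) in each of the 10 libraries, scaled by plain library totals, with 1 bar per library and no error bar. The SAHA libraries have the lowest purple bars of the 10, 2734 and 3518 CPM, and the mitosis bars exceed the replication bars in both femoral controls and 1 femoral KOKI pool.

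The next comparison was of KOKI with WT spleen cultures, taking the KOKI cultures as LPS alone. Ccne1, a regulator of S phase entry, rose by 0.64 log2 (SE 0.14, adjusted p = 0.0449) and Cdc6, the licensing ATPase, by 0.57 (SE 0.13, adjusted p = 0.0496) in edgeR's test. None of the 42 fell, and 40 did not pass. Of all genes tested 2.25% were called higher, a share that 1 call among the 42 would give. Ccne1 (chr7:38097984-38107534) stood at 24.4 and 27.3 CPM in WT LPS, 16.5 and 17.4 with SAHA, 39.2 and 40.1 in KOKI, 32.8 and 30.5 in the femoral controls, and 29.6 and 30.3 in the femoral KOKI pools. Its KOKI libraries exceeded all 8 others, as did those of Cdc6, whose values are above. Over the whole set, 33 of the 42 fold changes were positive and 9 negative, with a median of 0.14 against -0.02 over all genes tested. In 18 genes both KOKI libraries lay above both WT LPS libraries, in 3 (Mcm6, Pold1 and Tyms) below, and in 21 the groups overlapped. Of all genes tested 21.4% lay above in this way and 25.7% below. Fen1, at 0.55 (adjusted p = 0.0884), and E2f2, at 0.52 (adjusted p = 0.0683), were the next largest.

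Both calls were near the threshold: leaving out any 1 of the 4 libraries compared gave 0, with adjusted p = 0.0879 to 0.226 for Ccne1 and 0.176 to 0.258 for Cdc6, and DESeq2 gave 0 (4 at an unadjusted p under 0.05; Ccne1 0.0679, Cdc6 0.0516). With the WT number as a block, 4 were called (Ccne1, Cdc6, E2f2 and Fen1), against 3.58% of all genes tested called higher. None of the 74 tested genes on the 4 further lists was called in edgeR's test. At an unadjusted p under 0.05 were 1, 6, 1 and 2 of them by list, and 2678 of all 15342 genes tested. Of 39 mitosis genes 3 rose (Pttg1 1.71, Bub1 0.55, Ccnb2 0.52). The 8 plasmablast markers summed to 1816 and 1667 CPM in KOKI against 823.3 and 796.3 in WT LPS, and 6 of 7 tested rose. The 10 mature B cell markers summed to 4003 and 4435 against 4385 and 4882, with none called. The 8 macrophage and monocyte markers summed to 28.55 and 30.41 against 26.85 and 27.1, and of 6 tested Itgam was higher (2.71) and Lyz2 lower (-1.41). The 10 T cell markers summed to 9.81 and 8.595 against 15.35 and 15.02, with none of 8 tested called, 7 of them negative and a median of -1.92. The part of these cell states in the difference was not tested.

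**Figure D4:**
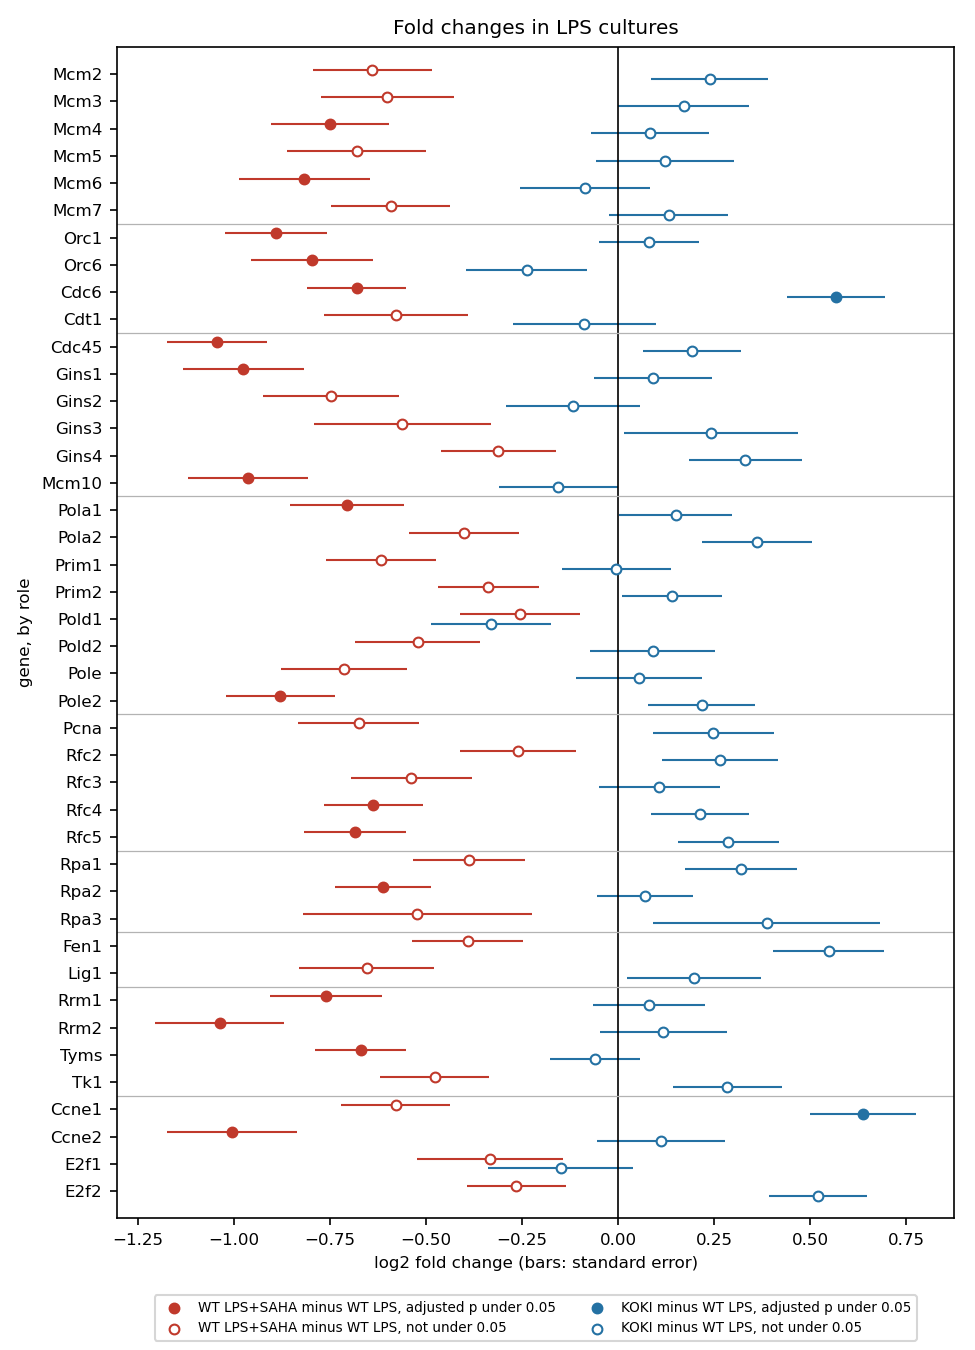
Log2 fold change with its standard error for each of the 42 genes in the LPS cultures, SAHA against WT LPS in red and KOKI against WT LPS in blue, with filled circles for an adjusted p under 0.05. All red points lie left of 0, from -1.04 (Cdc45) to -0.25 (Pold1), and the 2 filled blue points are Cdc6 and Ccne1. The 2 comparisons share the WT LPS libraries.

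If the treatment label of the KOKI cultures holds, their counterpart is WT with LPS and SAHA. Against that group 38 of the 42 genes were higher in KOKI and none lower, where 14.1% of all genes tested were called higher. The 4 that did not pass were Cdt1 (0.49, adjusted p = 0.0952), Rpa3 (0.91, adjusted p = 0.0604), E2f1 (0.18, adjusted p = 0.515) and Pold1 (-0.08, adjusted p = 0.753). Both KOKI libraries lay above both SAHA libraries in 41 genes, with Pold1 the exception. Of all genes tested, 32.9% lay so. The largest differences were Cdc6 at 1.25 (SE 0.13, adjusted p = 0.000915), Cdc45 at 1.23 (SE 0.13, adjusted p = 0.000979) and Ccne1 at 1.22 (SE 0.14, adjusted p = 0.00133). Rrm2 (1.15), Ccne2 (1.12), Pole2 (1.10), Gins1 (1.07) and Rfc5 (0.97) followed, all from the libraries whose values are given above. The median was 0.79. Without SAHA replicate 1 or 2 the count was 23 or 32, and without KOKI replicate 1 or 2 it was 29 or 19, where 7.13%, 8.03%, 6.74% and 6.28% of all genes tested were called higher in turn.

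In the same comparison all 39 mitosis genes rose, at a median of 1.30, led by Cdc20 (1.75) and Bub1 (1.67). Of the further lists 9 of 15 origin genes, 17 of 25 fork genes, 6 of 10 deoxynucleotide genes and 12 of 24 G1/S genes rose, and 1 of each of the last 2 lists fell. Among those that rose were Ticrr (1.07), Top2a (1.48), Shmt1 (0.99) and Ccna2 (1.35). All 7 tested plasmablast markers rose too, at a median of 2.43. Of 10 mature B cell markers 4 were lower in KOKI, led by Cr2 (-1.74) and Fcer2a (-1.62), and none higher. Of 6 tested macrophage and monocyte markers 3 were lower (Lyz2 -2.34, Adgre1 -1.59, Csf1r -2.66) and Itgam higher (2.11), and of 8 T cell markers Lck was lower (-0.88). Csf1r was near the floor, at 0.192 and 0.215 CPM in KOKI against 0.761 and 2.08 with SAHA. The sums of these lists in each library are above, and their part in the difference was not tested. This comparison shares the SAHA libraries with the first, so its values are not a second observation of the fall with SAHA.

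Levels between genes were compared as RPKM, which is CPM per kilobase of exon, using the gene lengths of the count file. Pcna was the most abundant member in every group, at 207 and 181 RPKM in WT LPS, 118 and 120.3 with SAHA, 236 and 218 in KOKI, 148 and 124 in the femoral controls, and 116 and 129 in the femoral KOKI pools. Rrm2 was next by the mean over libraries, at 118 and 101 RPKM in WT LPS, 58.4 and 46.0 with SAHA, 118 and 116 in KOKI, 56.3 and 80.5 in the femoral controls, and 70.1 and 89.4 in the femoral KOKI pools. Mcm5 followed, at 81.6 and 101 RPKM in WT LPS, 53.9 and 58.0 with SAHA, 88.9 and 107 in KOKI, 68.9 and 57.7 in the femoral controls, and 69.3 and 62.1 in the femoral KOKI pools. At the other end, E2f1 was lowest in the 3 splenic groups and stood at 4.29 and 5.52 RPKM in WT LPS, 3.78 and 3.86 with SAHA, 4.26 and 4.47 in KOKI, 7.27 and 6.82 in the femoral controls, and 6.35 and 6.67 in the femoral KOKI pools. Gins2 was at 10.2 and 8.10 RPKM in WT LPS, 4.73 and 5.90 with SAHA, 7.62 and 8.94 in KOKI, 5.18 and 4.53 in the femoral controls, and 4.83 and 5.75 in the femoral KOKI pools. Gins3 was at 7.11 and 7.11 RPKM in WT LPS, 3.92 and 5.49 with SAHA, 6.90 and 9.69 in KOKI, 8.86 and 6.83 in the femoral controls, and 6.88 and 5.27 in the femoral KOKI pools. The lowest member of the femoral controls was Gins2, and that of the femoral KOKI pools Orc1, at means of 4.86 and 5.25 RPKM. The median over the 42 genes was 20.2 RPKM in WT LPS, 14.2 with SAHA, 22.9 in KOKI, 19.2 in the femoral controls and 20.1 in the femoral KOKI pools, so SAHA cultures had the lowest median of the 5 groups.

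**Figure D5:**
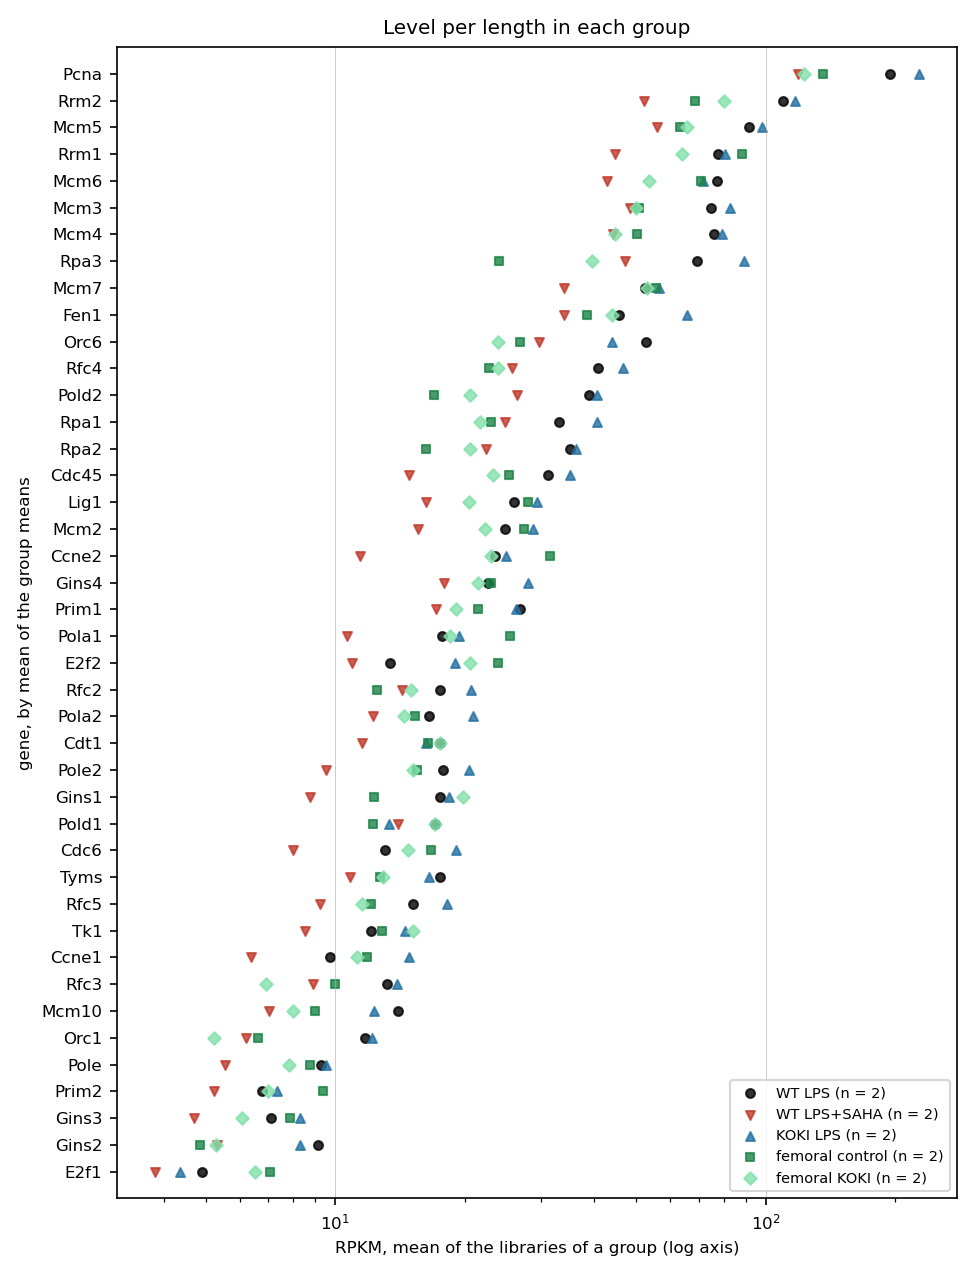
Mean RPKM of each of the 42 genes on a log axis, with 1 symbol per group of 2 libraries and no error bar, ordered by the mean of the groups. The red triangles of WT LPS+SAHA lie left of the black WT LPS circles for every gene, and Pcna is at the top in all 5 groups, from 119 to 227 RPKM.

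In the femur the question was how KOKI pools differed from controls on RAG2-deficient backgrounds. None of the 42 was called in edgeR's test, which called 5 of all genes tested, 0.0301%. At an unadjusted p under 0.05 were 4 of the 42 and 2687 of all 16624 genes tested. DESeq2 called none of the 42 either, where it called 2.87% of all genes tested higher and 1.43% lower. The median was -0.10, and fold changes ran from -0.54 in Rfc3 to 0.72 in Rpa3. Rpa3 (chr6:8255936-8259173) stood at 23.9 and 30.8 CPM in the femoral controls and 41.9 and 47.9 in the femoral KOKI pools. Gins1, at 18.5 and 18.8 CPM in the femoral controls and 29.0 and 31.0 in the femoral KOKI pools, had the next highest fold change, 0.69 (adjusted p = 0.159). Both pools exceeded both controls in these 2 genes. Over the 42, 8 genes had both KOKI pools above both controls (Gins1, Pold1, Pold2, Rfc2, Rpa2, Rpa3, Fen1 and Tk1), 17 had them below, and 17 overlapped. The shares of all genes tested were 24.8% above and 24.5% below.

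The controls differed between themselves: control 1 was above control 2 in 33 of the 42, by a median of 0.21 log2 and by up to 0.81 in Rfc3, whose values were 45.9 and 26.1 CPM in the femoral controls and 28.4 and 21.5 in the femoral KOKI pools. Without control 1 there were 3 calls, Gins1, Pold2 and Rpa3, all higher in KOKI, where 6.46% of all genes tested were called higher. Without control 2 there were 13, of which Gins1, Pold1, Rpa2 and Rpa3 were higher and 9 lower (Ccne2, Lig1, Mcm2, Mcm6, Orc1, Pola1, Prim2, Rfc3 and Rrm1). That fit called 10.3% of all genes tested higher and 9.57% lower. Without either KOKI pool no member was called. In those fits the lone library is assumed to vary like the other group. The 2 KOKI pools differ in gamma c, 1 pool each, so that difference has no replicate.

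Splenic WT LPS cultures were set beside the femoral controls to show where the genes are high. In this comparison tissue, genotype, culture and cell make-up differ together and cannot be told apart. In edgeR's test 15 of the 42 were higher in the cultures, where 21.1% of all genes tested were higher, and 2 were lower, where 21.3% were lower. The single-stranded DNA binding genes were all 3 higher, Rpa3 by 1.52, Rpa2 by 1.11 and Rpa1 by 0.52. Pold2 (1.19), Orc6 (0.98), Gins2 (0.91), Rfc4 (0.84) and Orc1 (0.82) were also among the higher. E2f2 was lower, at -0.83 (SE 0.18, adjusted p = 0.00302), and so was Pola1, at -0.52 (adjusted p = 0.0425). In 24 genes both cultures lay above both controls, and in 7 below (Cdc6, Pola1, Prim2, Ccne1, Ccne2, E2f1 and E2f2). Of all genes tested 35.3% lay above and 36.1% below in this way. Scaling moved this split: with DESeq2 size factors 7 were higher and 6 lower, where 17.6% of all genes tested were higher and 24% lower. The median of all genes was then -0.17 in place of -0.02.

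Last, the KOKI difference in spleen was set against that in femur. None of the 42 was called for the difference between the tissues (DESeq2 also gave 0), where 0.846% of all genes tested were. At an unadjusted p under 0.05 were 6 of the 42 and 2655 of all 20204 genes tested. The values ran from -0.83 (adjusted p = 0.208) in Pold1 to 0.71 (adjusted p = 0.218) in Cdc6, with a median of 0.23. Ccne1 was at 0.69 (adjusted p = 0.232) and E2f2 at 0.71 (adjusted p = 0.256). An effect of KOKI on Cdc6 or Ccne1 that differs between spleen and femur was therefore not called, which does not show that the effects are alike.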

How the data were processed

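The authors deposited raw counts of reads per gene for 10 libraries, whole numbers that are not normalised, with gene coordinates and exon length (other) per the file headers. Per the submitters' processing notes, reads were aligned with STAR 2.4.0a to mm10, which is GRCm38, and counted with featureCounts of Subread 1.4.6-p1. Libraries were made with a stranded total RNA kit, per the labels' protocols, and the strand setting and the treatment of multimapping reads were not given in the sources used here, so counts of overlapping genes are uncertain. A further 100 entries that name no gene, with 1 to 17 counts per library, were left out.

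From the counts, edgeR 4.0.16 in R 4.3.3 (TMM, filterByExpr with 10 as its minimum count and 15 as its minimum total, quasi-likelihood F test, Benjamini-Hochberg over all genes tested, threshold 0.05) gave log2 fold changes and their standard errors (SE). The splenic comparisons came from 1 fit of 6 libraries in 3 groups, the femoral one from 4 libraries, both KOKI pools against both controls, and the last 2 from all 10 libraries in 6 groups. The splenic fit was also run on counts simulated from its own means and estimated spread, which checks the code and not the calls. CPM used TMM totals, and summed or marker CPM plain totals. RPKM divided CPM by the deposited length. The chi-square of counts, divided by its degrees of freedom, was 44.1 to 161 within 5 pairs of like libraries, so none was a copy. Nothing in the labels says that same-group samples came from separate animals, apart from title numbers, and p-values reflect the spread among these libraries alone, part of which may be technical.

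Per role, the genes with the largest and smallest SAHA fold change are given in every library, as are those called in KOKI comparisons (at most 8) and the highest and lowest by RPKM, with at most 4 genes per further list and 6 promoters. The members and lists were chosen with earlier results of these data known. The alternatives were DESeq2 1.42.0, DESeq2 size factors, no low-count filter, other sets of libraries, a replicate block, and leaving out each library. Some single genes of the lists are not reported here.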

Additional observations from a re-analysis of the deposited data

How the results depend on the processing

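Fold changes were recomputed for every member with SAHA and, elsewhere, for members called or given with a fold change, and for at most 4 called genes of each list: of 2089 values of 227 results, 1624 stayed on the same side of the threshold, 413 no longer passed and 50 newly passed. The 2 that changed sign were both Pold1 in KOKI against WT with SAHA, which was not called, at 0.011 without SAHA replicate 1 and 0.073 without KOKI replicate 1, in a range of -0.185 to 0.073 without 1 library. For SAHA against WT LPS, 17 genes were called, 26 with DESeq2, 31 without a low-count filter, 5 with all 10 libraries in 1 fit (Cdc45, Gins1, Mcm10, Pole2 and Ccne2), and 0 with the 4 libraries alone. The shares of all genes tested called lower were 3.69%, 6.5%, 4.2%, 0.708% and 0% in turn. Fits without 1 library are described above. For KOKI against WT LPS, 2 were called, 0 with DESeq2, with 4 libraries or with 10, 1 with DESeq2 size factors (Ccne1), and 0 to 0 without 1 library. For KOKI against WT with SAHA, 38 were called and 19 to 32 without 1 library. For the femoral pools 0 were called and 0 to 13 without 1 library. For WT LPS against the femoral controls 17 were called in either direction, and 11 without a filter. Without 1 library there were 8 to 17, the fewest (8) without WT LPS replicate 1. Of all genes tested, 21.1% were higher and 21.3% lower in the main fit, and 11.6% and 12.6% without a filter. Without WT LPS replicate 1 these shares were 13.9% and 16.6%. Counted in both directions, the 17 were not a larger share than among all genes tested. For the difference between tissues every alternative gave 0, as did each fit without 1 library (0 to 0). WT cultures share title numbers, and the deviations of same-numbered libraries from their group means correlated at 0.36 over 15342 genes. The titles put that number ahead of the treatment without saying that it is 1 animal. With that number as a replicate block, 30 genes were called lower with SAHA, the 17 among them, where 9.69% of all genes tested were. In KOKI against WT LPS 4 were higher (Ccne1, Cdc6, E2f2 and Fen1), where 3.58% of all genes tested were. In KOKI against WT with SAHA 40 were higher, where 18.4% of all genes tested were. Of the further lists, 9 origin, 17 fork, 5 deoxynucleotide and 9 G1/S genes were lower with SAHA in the block fit. No paired analysis was possible for the femoral libraries because the KOKI pools share no numbers with the controls. The cause of these shifts was not tested. There were at most 2 libraries a group, at a depth of at least 18614742 counts. Whether replicates or depth limit precision more was not tested.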
